A study of Homo sapiens with 2 samples.

Results

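The imprinted 11p15 locus is a stretch of the short arm of human chromosome 11 that holds 8 genes examined here: H19, IGF2, IGF2-AS, INS-IGF2, KCNQ1, KCNQ1OT1, CDKN1C and PHLDA2. Its members were the measured CpG positions of chromosome 11 that the deposited annotation assigns to the promoter or the transcribed part of any of these genes, with every position from 2015000 to 2026000 (hg19) added to take in H19 and the sequence upstream of it. Of 2773807 deposited positions, 2553 belonged to the locus. The rule used annotation and position only, but the members were chosen with earlier results of these data known. Whole read counts were lacking at 5 of them and 268 had fewer than 10 reads in 1 or both libraries, which left 2280 CpGs of 2523693 in the whole table.

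SH-SY5Y, the cell line of both groups, is an established line from a human neuroblastoma, a tumour of sympathetic nerve precursors. The control group received DMSO, the solvent, and the other group received Mdivi-1, a small molecule described as an inhibitor of the mitochondrial fission GTPase DRP1; doses and times are not given in the sources used here. DNA was captured with a panel of methylation-relevant regions, treated with bisulfite, which leaves methylated cytosines unchanged and converts unmethylated ones, and sequenced. Each group held 1 library, so no difference has a replicate check, errors cover the counting of reads alone (reads may share a PCR origin), and the tests compare the reads of 2 libraries and not the conditions.

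In imprinted regions, 1 parental copy of a control region is methylated and the other is not. At 11p15 the region upstream of H19 is methylated on the paternal copy, where it leaves IGF2 active, and the promoter of KCNQ1OT1 is methylated on the maternal copy, where it leaves CDKN1C and PHLDA2 active. A CpG methylated on 1 of the copies in every cell of a line with equal copies reads at about 50%, here called intermediate at 35 to 65%. A mixture of cells with different methylation gives the same reading. So can a sequence variant that removes the CpG on 1 copy, and a variant on all copies can read as unmethylated. The counts per CpG cannot tell these apart.

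Promoter sequences of 2 of the 8 members, H19 and INS-IGF2, were in the RefSeq table (assembly GRCh38.p14), each running from 250 bases before to 50 bases after the start of the gene. They are shown because a change of methylation level lies at the outermost annotated start of H19 and because single CpG values can be set on the INS-IGF2 sequence. The other annotated starts of H19 lie on the high side of that change. The H19 promoter is chr11:2001217-2001516 and the INS-IGF2 promoter chr11:2161160-2161459, both on the minus strand and printed 5′ to 3′, with the CpGs in capitals.
H19: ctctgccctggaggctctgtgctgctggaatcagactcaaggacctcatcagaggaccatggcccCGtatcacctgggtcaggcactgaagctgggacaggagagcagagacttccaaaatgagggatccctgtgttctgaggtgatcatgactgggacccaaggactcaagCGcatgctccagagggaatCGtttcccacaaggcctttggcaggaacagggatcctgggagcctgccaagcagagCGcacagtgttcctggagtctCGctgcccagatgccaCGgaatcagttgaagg
INS-IGF2: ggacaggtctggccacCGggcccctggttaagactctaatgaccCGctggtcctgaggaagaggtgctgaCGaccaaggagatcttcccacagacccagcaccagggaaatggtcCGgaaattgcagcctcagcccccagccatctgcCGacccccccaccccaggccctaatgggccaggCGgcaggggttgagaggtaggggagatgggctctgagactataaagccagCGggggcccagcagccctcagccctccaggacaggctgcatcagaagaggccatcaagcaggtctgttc
The H19 sequence holds 6 CpGs and the INS-IGF2 sequence 7, against a median of 14 over 35116 RefSeq promoters of this length. The letters GGNGGCAG, part of the sequence recognised by the insulator protein CTCF, were searched on both strands. They occur once in the INS-IGF2 sequence, at bases 180 to 187 as printed, in none of the 300 bases shown for H19, and in 16.7% of all promoters.

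Positions of the files are on hg19, so the printed CpGs were looked for among the measured positions of the locus by their spacing alone, with no coordinate carried over from the other assembly. All 7 CpGs of INS-IGF2 matched at 1 place and at most 5 anywhere else. For H19 no place matched more than 4 of the 6, so no values are set beside its letters. The first CpG of INS-IGF2 (hg19 position 2182673) was methylated in 11 of 18 reads with DMSO and in 20 of 39 with Mdivi-1, or 61.1% and 51.3%. The next (2182645) read 36.4% and 34.9%. The CpG after it (2182619) was unmethylated in 23 and 48 reads, which allows a level of up to 13.0% and 6.25%. Over these first 3 CpGs the level fell from a middle value to no methylated read. The fourth (2182574) read 18.2% and 17.5%, and the fifth (2182541) was unmethylated in 19 and 32 reads, which allows up to 15.8% and 9.38%. The sixth (2182508), which lies inside the GGNGGCAG match, was methylated in 1 of 19 and 5 of 34 reads, or 5.26% and 14.7%. The last (2182458) read 50% and 46.9%. Both libraries thus showed the same order of high outer and low inner CpGs, and the smallest unadjusted Fisher p among the 7 was 0.402. At these depths the 95% Wilson interval of a single CpG is wide, from 38.6% to 79.7% for the first CpG with DMSO.

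Methylation over the locus averaged 41.7% with DMSO and 42.2% with Mdivi-1 over the 2280 CpGs. The libraries differed by 0.523 percentage points (counting error 0.204 where CpGs are taken as independent), and by 0.460 points over all CpGs of the table, where the levels were 42.6% and 43.1%. Of the locus CpGs, 1090 were higher with Mdivi-1, 982 lower and 208 equal, and the median difference was 0. Mean coverage of the locus was 37.0 reads with DMSO and 45.2 with Mdivi-1, against 39.7 and 49.1 over the table.

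CpGs of intermediate level were more frequent in the locus than in the table. Those at 35 to 65% made up 27.5% of the locus in each library (628 CpGs with DMSO and 626 with Mdivi-1), against 10.1% of all CpGs in each library. In both libraries at once, 495 locus CpGs (21.7%) lay in that range, against 7.20% of all CpGs. The ends of the scale were thinner: 27.7% of locus CpGs were below 10% with DMSO, against 42.04% of all CpGs, and 11.8% were above 90%, against 23.3%. Within CpG islands, 31.3% of 640 locus CpGs were intermediate with DMSO, against 7.93% of 963995 island CpGs. Outside islands and their flanks, 795 locus CpGs averaged 35.8% with DMSO and 36.5% with Mdivi-1, while the same class averaged 56.1% and 56.8% over the table.

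Promoters of imprinted genes elsewhere also held many intermediate CpGs. At promoters of listed genes beside or between the members, the share of intermediate CpGs with DMSO ran from 0 to 30.3%. Of 478 promoter CpGs of the members, 32.2% with DMSO and 33.1% with Mdivi-1 were intermediate, against 24.0% and 23.1% of 2219 promoter CpGs of listed imprinted genes elsewhere and 8.24% and 8.23% of 741976 promoter CpGs in the table. Among those other imprinted promoters, 10 of 34 had a mean at 35 to 65% in both libraries. Within these 10 the share of intermediate CpGs with DMSO ran from 1.53% to 64.6%, so a middle mean could come from high and low CpGs. The 2219 CpGs of the other imprinted promoters were more often above 90% than those of the member promoters, 32.1% against 15.7% with DMSO.

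**Figure D1:**
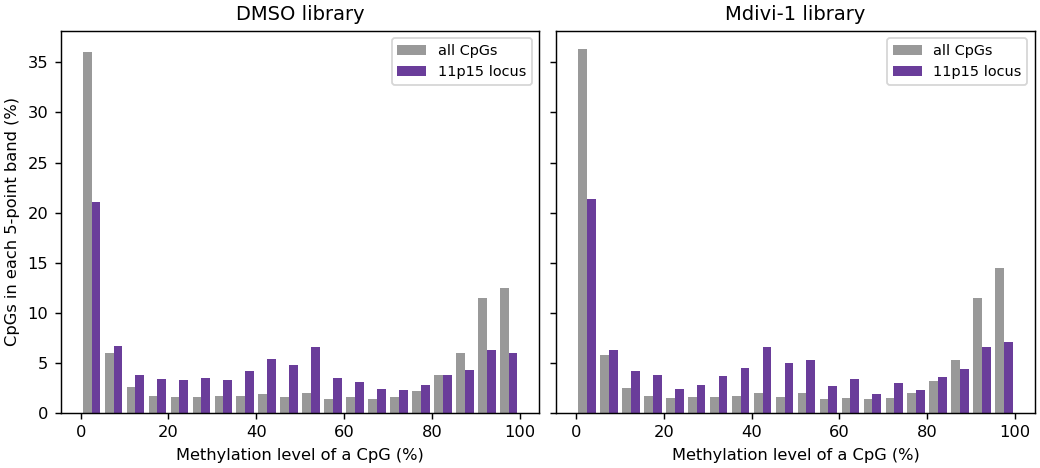
Share of CpGs (%, vertical axis) in each 5-point band of methylation level (%, horizontal axis), for the 2280 CpGs of the 11p15 locus and for all 2523693 CpGs, in each library. The locus has fewer CpGs near 0 and 100% than the table and a second rise near 50%, where 27.5% of its CpGs lie at 35 to 65% in each library against 10.1% of all CpGs.

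No single CpG of the locus was called by the two-sided Fisher exact test at a Benjamini-Hochberg adjusted p under 0.05 and a difference of at least 20 points, and the smallest adjusted p was 1. Over the whole table that rule called 0.000634% of CpGs. At an unadjusted p under 0.05 there were 61 locus CpGs, 37 higher and 24 lower with Mdivi-1, or 2.68% against 2.02% of all CpGs. A CpG of middle level passes that threshold more often: among CpGs at a pooled level of 35 to 65%, 21 of 639 locus CpGs (3.29%) did so, against 4.07% over the table. The smallest p belonged to position 2179118, in an intron of INS-IGF2. It was methylated in 17 of 27 reads (63.0%, Wilson 44.2 to 78.5) with DMSO and in 8 of 42 (19.05%, Wilson 9.98 to 33.3) with Mdivi-1, an unadjusted Fisher p of 3.1e-04 and an adjusted p of 1. Next came position 2819036, in an intron of KCNQ1, with 22 of 46 reads (47.8%) and 9 of 54 (16.7%). These 2 positions were the lowest of 2280 p-values and were picked for that.

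Regions were counted as different when they held 5 or more CpGs, their means lay 10 or more points apart and at least 80% of the CpGs went that way. By this rule of size, 0 of 15 CpG islands of the locus differed, against 0.573% of 21309 islands in the table. An island is represented by its CpGs with at least 10 reads, often fewer than it is annotated with. Its coordinates here are those of the first and last such CpG. Of the 15 islands, 9 were higher and 6 lower with Mdivi-1, and their median difference was 1.13 points against 0.145 points over all islands. The 95% counting interval for independent CpGs left out 0 for 2 of the 15, against 15.5% of all islands. When the reads of an island are taken as shared between its CpGs, the widest case, the interval of each of the 15 held 0. Mean level was at 35 to 65% in both libraries in 4 of the 15 islands (26.7%) and in 12.01% of all islands, a description chosen after the levels were seen.

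**Figure D2:**
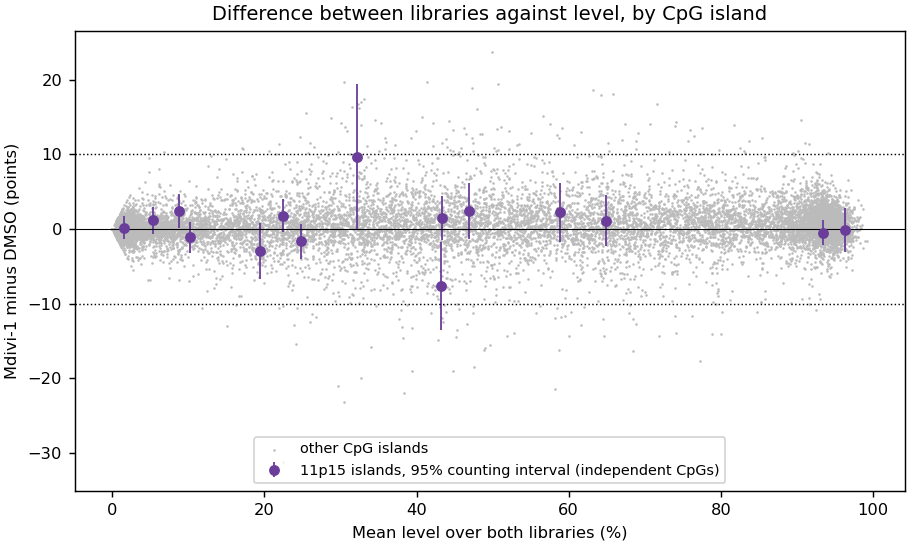
Difference Mdivi-1 minus DMSO (percentage points, vertical axis) against the mean level over both libraries (%, horizontal axis) of each CpG island with at least 5 CpGs. Large dots are the 15 islands of the locus with 95% counting intervals for independent CpGs, small dots the other islands, and dotted lines mark 10 points; all 15 dots lie between the dotted lines.

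H19 is a long noncoding RNA transcribed from the maternal copy, and the control region of the IGF2 and H19 domain lies upstream of it. The annotation used here does not mark the borders of that region. Sequence between the downstream and the upstream starts of H19 is counted below with the gene. It lies upstream of the downstream starts, so part of the control region may be counted with the gene. The levels of gene and upstream sequence below are therefore not levels outside and inside the control region. The whole stretch held 289 CpGs, at 82.9% with DMSO and 83.3% with Mdivi-1, a difference of 0.366 points (counting error 0.404 for independent CpGs and 7.47 for shared reads). This mean hid a sharp step. Over the H19 gene and the sequence between its starts, 234 CpGs from 2016478 to 2022681 averaged 90.5% and 91.5%. Of these, 213 were above 80% in both libraries. Upstream of every annotated start of H19, 55 CpGs from 2022749 to 2025939 averaged 50.5% and 48.5%, and 39 of them were intermediate in both libraries.

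The step was placed by windows of 500 bases with at least 5 CpGs, of which there were 17. The 12 windows up to position 2022462 lay between 83.5% and 94.9% with DMSO and between 85.3% and 95.7% with Mdivi-1. The 5 windows from position 2022681 on lay between 39.3% and 63.9% with DMSO and between 40.5% and 61.4% with Mdivi-1. No window of one kind lay among the other kind, in either library. Across the 17 windows the difference between libraries ran from -5.40 to 5.79 points, with 12 windows higher and 5 lower with Mdivi-1.

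**Figure D3:**
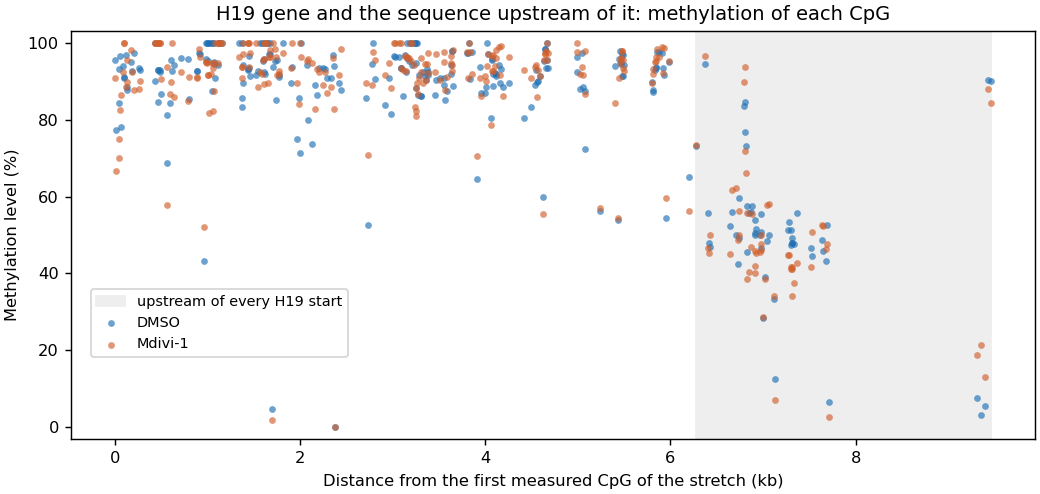
Methylation level (%, vertical axis) of each of the 289 CpGs against distance from the first measured CpG of the stretch (kb, horizontal axis), with 1 dot per library. H19 is transcribed from right to left. The gene on the left, counted with the sequence between its starts, sits near 91% in both libraries. The shaded part upstream of every H19 start sits near 50%, with CpGs from 2.70% to 96.5%.

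The annotated promoters of H19 fell on either side of the step. Those of the downstream starts (83 CpGs, 2019193 to 2021104, in transcribed sequence of the longer form) averaged 91.0% with DMSO and 92.3% with Mdivi-1. The promoter of the upstream start (50 CpGs, 2022749 to 2024193) averaged 51.6% and 48.9%, a difference of -2.70 points. Its 95% counting interval lay below 0 for independent CpGs (-4.90 to -0.502) and held 0 for shared reads (-18.1 to 12.7). The promoter of MIR675, a microRNA cut from the H19 transcript, averaged 89.8% and 91.0% over 86 CpGs. The CpG island of the gene (2017461 to 2018253, in the noncoding exon and the 3′ UTR of the annotated HOTS reading frame) averaged 93.7% and 93.2% over 50 CpGs.

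A few CpGs departed from their neighbours in both libraries alike. In the H19 gene, 7 of 234 CpGs were below 65% in both libraries. Position 2018853, in the noncoding exon, was unmethylated in all 81 reads with DMSO and all 101 with Mdivi-1, which allows a level of up to 3.70% and 2.97%. Position 2018169 was methylated in 2 of 42 reads (4.76%) and 1 of 55 (1.82%). The other 5 read from 43.3% to 60% with DMSO and from 52.1% to 59.6% with Mdivi-1. These 7 were low in both libraries, while 213 of the 234 CpGs of the gene were above 80% in both. Whether the line carries a sequence variant at any of these 7 positions was not tested, so their levels may not be methylation levels. Upstream of the gene, 8 CpGs were above 65% and 7 below 35% in both libraries. The 5 farthest CpGs (2025786 to 2025939), intergenic, were split into 3 low and 2 high ones. Among the low ones, position 2025831 was methylated in 2 of 64 reads (3.13%) with DMSO and 13 of 61 (21.3%) with Mdivi-1, an unadjusted Fisher p of 0.00197 and an adjusted p of 1.

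KCNQ1OT1 is a long noncoding RNA transcribed from the paternal copy, antisense to KCNQ1, from a promoter in an intron of that gene. Its CpG island (2720412 to 2722087, 110 CpGs in the noncoding exon and the KCNQ1 intron) averaged 42.6% with DMSO and 44.1% with Mdivi-1. The difference was 1.48 points, about the size of its counting error (1.47 for independent CpGs, 12.9 for shared reads). With DMSO its CpGs ran from 2.13% to 66.7% with a median of 43.8%, and with Mdivi-1 from 0 to 86.7% with a median of 45.1%. Intermediate levels were found at 85 CpGs in each library and at 73 in both. Split by CpG order into 4 runs of 27 or 28 CpGs, the island read between 40.6% and 43.9% with DMSO. With Mdivi-1 the runs read between 39.0% and 46.4%. The mean level was thus similar from run to run, while single CpGs within the runs departed from it. For example, a CpG read 4.17% with DMSO and 0 with Mdivi-1, and another 64.7% and 86.7%.

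The flanks of this island were not at its level. The promoter annotation covered 76 CpGs (2721238 to 2722786), at 38.8% with DMSO and 37.6% with Mdivi-1. Of these, the 59 inside the island read 42.9% in both libraries, and the 17 beyond its end (2722120 to 2722786) read 24.3% and 19.3%. That difference of -5.07 points had a 95% interval below 0 for independent CpGs (-9.33 to -0.807) and one that held 0 for shared reads (-22.9 to 12.8). On the transcribed side, 11 CpGs of the island's shore (2720161 to 2720352), with a mean coverage of 123 and 139 reads, read 73.7% and 72.2%. Over the transcribed part outside the island, 114 CpGs averaged 52.0% and 52.9%, and 58 of them were intermediate with DMSO.

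**Figure D4:**
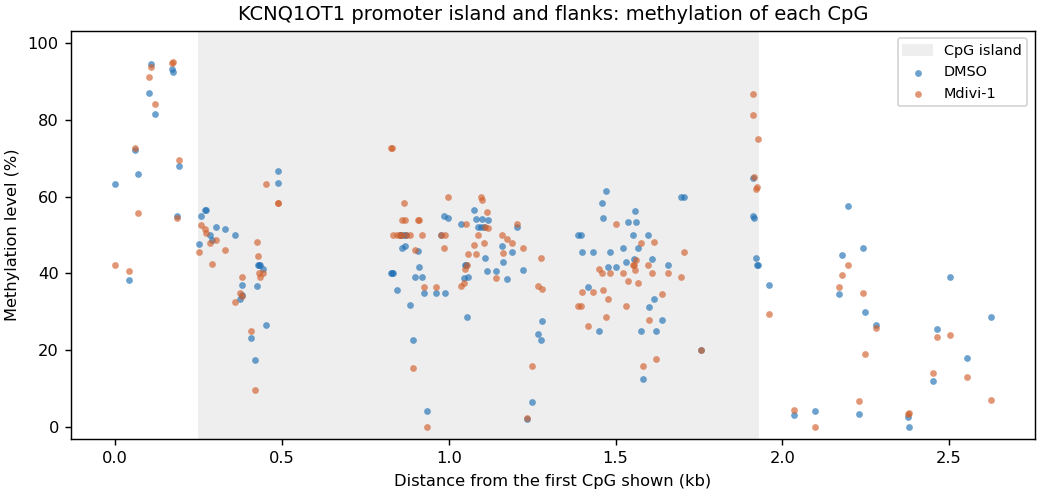
Methylation level (%, vertical axis) of each CpG of the KCNQ1OT1 island (shaded) and its flanks against distance from the first CpG shown (kb, horizontal axis), with 1 dot per library. Most island CpGs lie between 35 and 65% in both libraries, the flank on the transcribed side (left) reaches 94.9% and the flank beyond the promoter (right) falls to 0.

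IGF2, a growth factor made from the paternal copy, shares sequence with its antisense transcript IGF2-AS and with the read-through transcript INS-IGF2, so a CpG can be annotated to several of them. Together they held 501 CpGs, at 32.8% with DMSO and 33.4% with Mdivi-1, a difference of 0.615 points (counting errors 0.496 and 11.6). On average, promoter CpGs of these 3 genes were lower than their other CpGs. The latter read 31.2% for IGF2, 34.98% for IGF2-AS and 34.9% for INS-IGF2 with DMSO. The IGF2 promoters averaged 19.1% and 20.6% over 145 CpGs, the IGF2-AS promoter 16.9% and 14.7% over 39 CpGs, and the INS-IGF2 promoter 22.8% and 22.6% over 13 CpGs. Promoter CpGs of MIR483, a microRNA gene inside IGF2, averaged 64.0% and 63.9% over 22 CpGs.

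Along IGF2 the level changed from island to island. The island near the 3′ end (2154035 to 2154387, 24 exonic CpGs) read 47.1% with DMSO and 39.4% with Mdivi-1. With DMSO its CpGs ran from 23.5% to 58.8% with a median of 47.9%, with Mdivi-1 from 25% to 50% with a median of 40%, and 18 of the 24 were lower with Mdivi-1. The 95% interval of the difference of -7.65 points lay below 0 for independent CpGs (-13.6 to -1.74) and held 0 for shared reads (-35.9 to 20.6). It was -1.42 points when only CpGs with at least 30 reads were kept. The main promoter island (2158953 to 2162484, 100 of 302 annotated CpGs) read 21.6% and 23.4%, and 26 of these 100 CpGs were intermediate in both libraries. A further island, intronic (2165137 to 2165540, 38 CpGs), read 20.9% and 17.9%.

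The intronic island of INS-IGF2 (2176932 to 2177043) rested on 9 CpGs with a mean coverage of 14.4 and 12.8 reads. It read 27.3% with DMSO and 37.0% with Mdivi-1, with all 9 CpGs higher. Its difference of 9.64 points fell short of the rule of size, and its interval held 0 both for independent CpGs (-0.176 to 19.5) and for shared reads (-25.5 to 44.8).

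KCNQ1, which encodes a voltage-gated potassium channel subunit, gave most of the positions. Its 1149 annotated CpGs averaged 36.9% with DMSO and 37.4% with Mdivi-1, a difference of 0.542 points (counting error 0.278 for independent CpGs). Its promoters averaged 50.8% and 50.9% over 55 CpGs, and this middle value was the mean of unlike starts. At the first start (2464823 to 2465507, 22 CpGs) the level was 84.7% and 84.0%. At the second (2481169 to 2482655, 33 CpGs) it was 28.2% and 28.8%. A mean near 50% here therefore came from high and low CpGs, and 9 of the 55 were intermediate with DMSO. Weighted by reads, the promoter difference was -3.71 points in place of 0.0932. Within the first start alone the read-weighted difference was 0.756 points, and within the second -0.749 points. Mean coverage was 21.7 and 27.5 reads at the first start and 28.2 and 47.4 reads at the second.

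The other 7 islands annotated to KCNQ1 covered nearly the whole scale. The lowest, intronic at 2554105 to 2554331, read 1.48% with DMSO and 1.68% with Mdivi-1 over 17 CpGs. The highest, upstream at 2465417 to 2465507, read 96.4% and 96.3% over 14 of 37 annotated CpGs. Islands at 2593959 (20 CpGs, 57.7% and 59.9%) and 2817989 (25 CpGs, 45.6% and 48.1%) had middle means. Their CpGs ran with DMSO from 5% to 100% and from 0 to 81.8%, and 4 of 20 and 5 of 25 were intermediate in both libraries, against 73 of 110 in the KCNQ1OT1 island and 16 of 24 in the 3′ island of IGF2. The island at 2812417 (53 CpGs) read 64.3% and 65.4%, and that at 2828447 (34 CpGs) 10.8% and 9.67%. The island at 2603222 (20 CpGs) read 7.55% and 9.99%, a difference of 2.44 points whose 95% interval lay above 0 for independent CpGs (0.116 to 4.76) and held 0 for shared reads (-7.40 to 12.3).

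**Figure D5:**
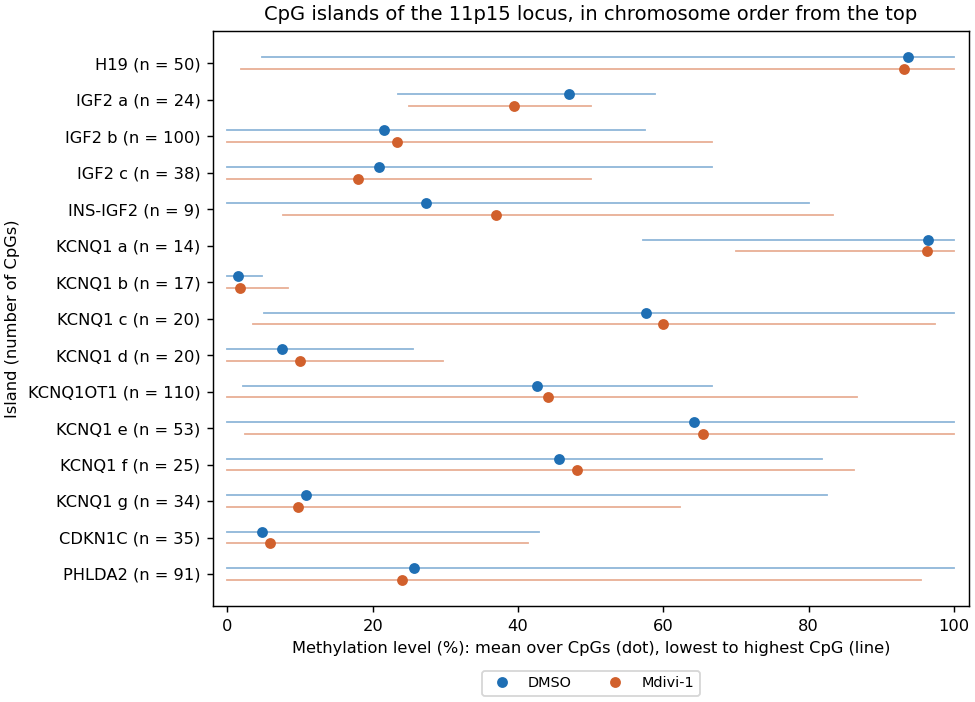
Mean methylation level (%, horizontal axis) of each of the 15 CpG islands of the locus in each library (dots), with lines from the lowest to the highest CpG; n is the number of CpGs and letters number the islands of a gene. Means run from 1.48% to 96.4% with DMSO, and both dots of an island lie within 10 points of each other.

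CDKN1C and PHLDA2 are expressed from the maternal copy under the KCNQ1OT1 control region. CDKN1C encodes an inhibitor of cyclin-dependent kinases, and its CpGs were the least methylated of the member promoters. Its promoter averaged 8.27% with DMSO and 10.3% with Mdivi-1 over 16 CpGs (counting errors 1.60 and 9.05 points). The measured part of its island (2906403 to 2906958, exonic and 5′ UTR) averaged 4.76% and 5.92% over 35 of 191 annotated CpGs. At position 2908234, the outermost promoter CpG, 8 of 28 reads (28.6%) and 22 of 34 (64.7%) were methylated, an unadjusted Fisher p of 0.00571 and an adjusted p of 1. The promoter difference of 2.02 points leans on this CpG, which was 36.1 points higher with Mdivi-1. Of the 16 promoter CpGs, 4 were higher, 6 lower and 6 equal, and their median difference was 0.

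PHLDA2 encodes a small pleckstrin-homology protein that limits placental growth. Its promoter averaged 31.3% with DMSO and 32.2% with Mdivi-1 over 40 CpGs (counting errors 1.75 and 14.2 points). Levels there ran from 0 to 100% with DMSO with a median of 18.3%, and 9 of the 40 CpGs were intermediate. The island (2949790 to 2951756, 91 of 200 annotated CpGs) read 25.7% and 24.0%, with 9 CpGs intermediate in both libraries. The transcribed part outside the promoter (68 CpGs) read 20.8% and 17.9%.

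Other imprinted genes and a check of the cell line give the setting. Promoters of 34 of 37 listed imprinted genes outside the locus had at least 5 CpGs. Of these, 17 were higher and 17 lower with Mdivi-1, the median difference was 0.0802 points against 0.200 over all promoters, and none met the rule of size, which 0.293% of 23526 promoters did. Nearest to 50% were ZNF331 (48.0% with DMSO and 47.9% with Mdivi-1), PLAGL1 (53.0% and 51.5%) and SNRPN (59.5% and 57.7%). With DMSO, 153 of 237 CpGs were intermediate at ZNF331, 32 of 90 at PLAGL1 and 3 of 20 at SNRPN. The SNRPN CpGs ran from 0 to 100% with a median of 86.8%. The widest differences were those of HYMAI (-7.38 points, 9 CpGs), DIRAS3 (5.33 points, 20 CpGs) and NAP1L5 (-5.06 points, 28 CpGs). Of 9 promoters of genes that define adrenergic neuroblastoma, 5 were below 10% in both libraries (HAND2, GATA3, GATA2, ISL1 and DBH), while TH read 53.7% and 54.5%. Of 7 markers of other cell types, 3 were measured: EPCAM at 90.3% and 88.5%, COL1A1 at 17.9% and 19.1%, and KRT5 at 4.12% and 5.27%. Promoter methylation alone does not measure expression, so this check of the label is partial.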

How the data were processed

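Methyl-capture bisulfite libraries (SureSelectXT Methyl-Seq capture, NovaSeq sequencing, per the labels' protocols) of 2 samples of SH-SY5Y cells were analysed, 1 with DMSO and 1 with Mdivi-1. Reads were aligned with BSMAP to hg19, per the submitters' processing notes; no version is given in the sources used here. Per position, the authors deposited a methylated fraction and a read coverage for both libraries, with annotation. The deposited coverage is treated as an estimated count, since 10751 positions have a fractional value. The deposited score column, the difference of the fractions, was not used.

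Control fractions came out whole at 33.3% of positions at the deposited coverage, and at 100% once coverage was scaled by 37/30 (the medians of the Mdivi-1 and control coverage) and rounded (tolerance 1e-06). This rescaling is read from the values and not stated in the sources. Whole methylated reads were obtained as the count that this step, with the ratio first rounded to 3 decimals (a form found by trial), turns into the deposited fraction. In all, 10795 positions were left out. Of the 2280 kept locus CpGs, 2275 were on the minus strand.

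Levels are means over CpGs covered by 10 reads or more in each library, and differences are Mdivi-1 minus DMSO. Each CpG of the table had a two-sided Fisher exact test, with Benjamini-Hochberg adjustment over all of them. Counting errors are binomial, for independent CpGs and for reads fully shared between CpGs. Promoters and islands follow the deposited annotation. Named were all 8 members, each island with at least 5 CpGs, every called CpG, and of the other lists the 3 promoters nearest to 50% and the 3 of widest difference. Of the cell type markers, 1 is not reported here. Stretches within members, single CpGs and the 500-base windows were singled out after their values were seen, and carry no test beyond the Fisher value. The members and lists were chosen with earlier results of these data known. Alternatives were other coverage minimums, removal of very deep CpGs, thinning to equal depth, pooled reads, medians, deposited fractions and other thresholds. Scripts were tested on simulated data. Tables were handled with pandas 2.3.3 and NumPy 2.4.6 in Python 3.11.15, tests and intervals used SciPy 1.17.1 and Numba 0.67.0, and plots Matplotlib 3.10.9.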

Additional observations from a re-analysis of the deposited data

How the results depend on the processing

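With 1 library per group, nothing here measures the spread between cultures, and no library could be left out. No paired analysis was possible because each group holds 1 library. Of 118 recomputed values over 16 results, 108 stayed within the counting error or count limits and 10 moved. Of 93 recomputed differences, 7, in 4 results, had the other sign and 7 were 0: the PHLDA2 promoter gave -1.87 points with at least 20 reads in place of 0.829, the KCNQ1OT1 island -0.178 with at least 30 reads in place of 1.48, the H19 stretch -0.0934 after subtraction of the mean of all CpGs, and the KCNQ1 promoter between -3.71 and -0.366 under 4 settings. With at least 30 reads no CpG was left for the CDKN1C promoter, nor with 20 or 30 for the INS-IGF2 island. The locus mean difference was 0.523 points as reported, 0 as the median CpG and 0.0631 after the mean difference of all CpGs was subtracted. The KCNQ1 promoter difference went from 0.0932 to -3.71 points with pooled reads. CpGs called in the locus numbered 0 with adjustment and 61 at an unadjusted p under 0.05. Islands meeting the rule of size were 0 at 10 points and 1, that of INS-IGF2, at 5 points. The share of intermediate CpGs was 33.4% with DMSO and 33.0% with Mdivi-1 at 30 to 70%, and 21.7% when both libraries had to lie at 35 to 65%. The 3′ island of IGF2 differed by -1.42 points with at least 30 reads. The cause of these moves was not tested, apart from the wider or narrower thresholds that set the counts and shares. At the coverage of the locus a call after adjustment needs a wide difference, so 0 calls do not show that levels were equal.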

Other observations

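Listed genes beside or between the members on chromosome 11 had promoters of unlike levels. Of 18 listed, 16 had at least 5 CpGs, 11 were higher and 5 lower with Mdivi-1, and the median difference was 0.421 points. The 13 CpGs of 1 of them, INS, are those of the INS-IGF2 promoter; the other 15 promoters, with no CpG of the locus, had 11 higher, 4 lower and a median of 0.758 points. None met the rule of size. By promoter, intermediate CpGs made up from 0 to 30.3% with DMSO, and most of the 16 exceeded the 8.24% of all promoter CpGs. Nearest to 50% were TH, the rate-limiting enzyme of catecholamine synthesis (53.7% with DMSO and 54.5% with Mdivi-1), ASCL2, a transcription factor of the placenta and intestinal stem cells (45.7% and 44.0%), and SYT8 (42.9% and 42.9%). Intermediate with DMSO were 5 of 30 CpGs at TH (16.7%), 6 of 36 at ASCL2 (16.7%) and 5 of 29 at SYT8 (17.2%). These shares lay above that of all promoter CpGs and below the 32.2% of the member promoters. The widest differences were those of TNNT3 (-2.20 points, 63 CpGs), SLC22A18 (1.92 points, 70 CpGs) and TSPAN32 (1.75 points, 44 CpGs). The least methylated were NAP1L4, which read 3.25% and 3.27%, and CARS1, at 1.69% and 1.77%. These last 2 were chosen after their values were seen.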
